A study of Mus musculus with 3 samples.

Results

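The Myc network was examined through acetylation of histone H3 at lysine 27 (H3K27ac), a chromatin mark of active promoters and enhancers, around 7 genes: Myc, Mycn, Mycl, Max, Mxd1, Mxi1 and Mnt. All peaks within 500 kb of the body of Myc and within 100 kb of the bodies of the other genes were taken. They numbered 126 of 38793 peaks in spheroids derived from mice after caerulein treatment and 123 of 37765 peaks in spheroids of untreated mice. Both groups are three-dimensional cultures of pancreatic epithelial cells of wild-type C57BL/6J mice, grown in the same medium, which contains epidermal growth factor, hydrocortisone and cholera toxin. Caerulein is a cholecystokinin analogue that causes acute pancreatitis, and the study asked what the epithelium keeps after the inflammation has resolved. Each group has 1 H3K27ac library, the remaining library being an input of untreated spheroids with no peak list used here, so the differences below are between single libraries and carry no p-value. Age, sex, dose, the number of mice and the time since treatment are not given in the sources used here.

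Myc, Mycn and Mycl are transcription factors of the basic helix-loop-helix leucine zipper class that pair with Max, bind E-box sequences in DNA and promote growth and ribosome synthesis. Mxd1, Mxi1 and Mnt pair with the same Max protein, bind the same sequences and recruit Sin3 corepressors, so they oppose Myc. Myc acts downstream of Ras and Wnt signalling, and in pancreatic ductal cancer it sustains the growth of the transformed epithelium.

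The lists carried the mark of duct-like epithelium in both groups. A peak lay within 1 kb of the transcription start, or of either gene end where no start was at hand, in both lists for 10 of 10 ductal marker genes, among them Krt19 and Sox9. Of all 21887 protein-coding genes, 52.7% were marked in this way. Among the other markers, 1 of 8 acinar genes was marked in both lists (Bhlha15, whereas Ptf1a had no peak within 50 kb in either list). So were 0 of 6 endocrine, 0 of 6 mesenchymal, 0 of 4 endothelial and 2 of 6 immune genes. The immune gene Ptprc was marked in the post-caerulein list alone. The length covered within 50 kb nevertheless differed at single markers, which were picked out here after their values had been seen. For comparison, 18.4% of 14123 protein-coding genes with at least 5 kb covered in either list were at least 1.2-fold higher after caerulein. A further 16.1% of them were at least 1.2-fold lower. It was at least 1.2-fold higher after caerulein at 1 of 10 ductal genes (Sox9, 11.2 kb after caerulein and 5.12 kb without treatment) and lower at 2 (Cftr, 23.6 and 54.5 kb, and Krt19, 41.5 and 52.6 kb, in the same order). Among genes with at least 5 kb covered in either list, 1 of 2 mesenchymal genes was higher and 0 lower. It was Pdgfrb, not marked at its ends, with 8.98 kb after caerulein and 2.74 kb without treatment. Of 4 immune genes 1 was higher (Ptprc, 6.89 and 5.47 kb) and 1 lower (Spi1, 6.25 and 15.2 kb, in the same order). Of 6 acinar genes 1 was higher (Cela1, 19.1 and 14.6 kb) and 1 lower (Cpa1, 4.26 and 7.64 kb). The 1 endothelial gene, Pecam1, was lower (16.5 and 20.9 kb). The part of these marker differences in the results below was not tested. All post-caerulein peaks together covered 140.4 Mb and all untreated peaks 134.6 Mb, a log2 difference of 0.061. Depth of the libraries is unknown, because the lists give no read counts.

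Every one of the 7 genes was marked in both groups, against 52.7% of 21887 protein-coding genes. For 6 of them the RefSeq promoter table (GRCm38.p6) gave a start, and each of these starts lay under a peak of both lists. The upstream sequences of Mycn, Max and Mnt are shown because they lie inside a peak of both lists and hold letters known to be bound by the network or its regulators. Capitals mark the E-box CACGTG, bound by Myc-Max and Mxd-Max pairs, in Max and Mnt, and TTTGGCGC, a form of the site of E2F factors, in Mycn. Each is written 5′ to 3′ on the strand of its gene and ends at the base before the start, except that of Max, which runs 3 bases past it. Mycn lies at chr12:12941837-12942086 on the minus strand, Max at chr12:76962246-76962498 on the minus strand and Mnt at chr11:74830674-74830923 on the plus strand.
Mycn: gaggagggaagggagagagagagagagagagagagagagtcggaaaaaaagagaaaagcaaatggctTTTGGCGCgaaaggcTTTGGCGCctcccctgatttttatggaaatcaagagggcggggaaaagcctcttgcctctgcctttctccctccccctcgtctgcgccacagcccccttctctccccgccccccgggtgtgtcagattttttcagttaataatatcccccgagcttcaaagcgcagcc
Max: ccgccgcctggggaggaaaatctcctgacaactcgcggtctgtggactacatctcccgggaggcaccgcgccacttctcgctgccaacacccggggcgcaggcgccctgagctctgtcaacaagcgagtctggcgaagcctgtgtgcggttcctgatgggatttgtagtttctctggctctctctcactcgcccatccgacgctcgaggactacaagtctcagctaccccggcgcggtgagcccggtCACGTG
Mnt: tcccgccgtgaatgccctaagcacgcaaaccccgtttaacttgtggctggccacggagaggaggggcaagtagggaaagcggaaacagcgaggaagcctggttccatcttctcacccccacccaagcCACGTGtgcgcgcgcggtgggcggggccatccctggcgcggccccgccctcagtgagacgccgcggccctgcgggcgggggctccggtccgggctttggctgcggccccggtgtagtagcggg

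The E-box reads the same on both strands. It was held by 7.84% of the 21263 promoter windows of protein-coding genes in the table, each running from 250 bases before to 50 bases after a start. In Max it spanned the start, at positions -3 to 3 with no position 0, and in Mnt it lay at -123 to -118. The letters TTTGGCGC, searched on both strands after the Mycn sequence had been seen, occurred at -183 to -176 and at -168 to -161 in Mycn and in 0.635% of all windows. They do not overlap the E-box. Neither motif was found in the windows of Mycl, Mxd1 or the 3 starts of Mxi1.

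The Myc locus had more length under H3K27ac peaks after caerulein, and the net difference lay on the side of Pvt1. Myc encodes the network's main activator (chromosome 15, 61985341 to 61990361, 5021 bp). Peaks within 500 kb of it covered 312.0 kb in post-caerulein spheroids, against 247.3 kb in untreated spheroids, a log2 difference of 0.33. Both lists covered 232.5 kb of this, the post-caerulein list alone 79.5 kb and the untreated list alone 14.8 kb. Windows of the same size around 19855 protein-coding genes had a median log2 difference of 0.02, and 13.2% of them were at least 1.2-fold higher after caerulein, as Myc was. Myc lay at percentile 90.8 of these windows. The limit of 1.2-fold was chosen after the values had been seen.

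The number of peaks around Myc was nearly equal, while peaks of at least 10 kb were more numerous after caerulein. There were 55 post-caerulein and 56 untreated peaks, with median widths of 2.72 and 2.46 kb. Merging peaks within 1 kb left 39 post-caerulein and 45 untreated peaks, covering 318.9 and 251.4 kb. Peaks of at least 10 kb numbered 9 after caerulein, with 162.9 kb in all, and 5 without treatment, with 68.1 kb. In the whole lists 4.83% of post-caerulein and 4.53% of untreated peaks were this wide. Untreated peaks that were split or just under 10 kb dropped out of the sums at Myc. These sums therefore differ by more than the covered length of the window did. The widest peak lay 113.3 kb from Myc inside Pvt1 and measured 36.9 kb after caerulein. In untreated spheroids 5 peaks fell in its place, of 3.79, 1.21, 14.1, 8.48 and 3.94 kb. All but the last lay within 1 kb of a neighbour, and a gap of 2.80 kb came before the last. Farther out, a post-caerulein peak of 24.0 kb, 262.7 kb from Myc, overlapped 3 untreated peaks, and one of 15.9 kb at 329.7 kb overlapped another 3. In both places 2 of the 3 untreated peaks lay within 1 kb of each other. A post-caerulein peak of 18.3 kb at 288.7 kb overlapped 2 untreated peaks, of 8.02 and 2.40 kb, and held the longest stretch covered after caerulein alone, 4.99 kb.

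**Figure D1:**
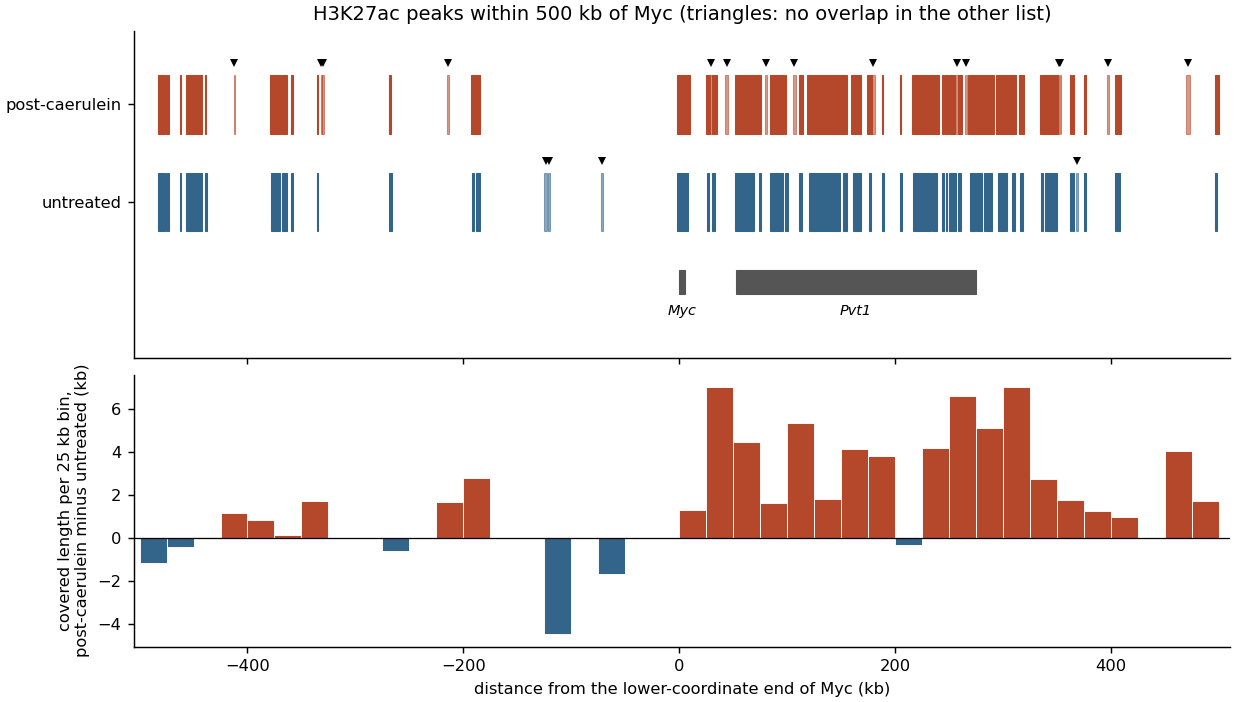
H3K27ac peaks within 500 kb of Myc in each list (upper panel; post-caerulein above untreated; boxes are peaks, grey bars the Myc and Pvt1 genes) and the difference in covered length per 25 kb bin (lower panel, kb), against the distance from the lower-coordinate end of Myc in kb. Of the 20 bins on the right, 18 have more covered length after caerulein and 1 less. Of the 20 on the left, 7 have more, 6 less and 7 are equal.

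Direction along the chromosome separated the locus into unlike flanks. On the side of higher coordinates, which holds Pvt1, peaks covered 245.5 kb after caerulein and 180.8 kb without treatment. On the opposite side they covered 61.4 kb after caerulein and 61.5 kb without treatment. The log2 difference of the higher flank was 0.44, at percentile 91.6 of 35197 flanks of 500 kb beside protein-coding genes, of which 17% were at least 1.2-fold higher. Bins of 25 kb were laid from the lower-coordinate end of Myc, so the first on the Pvt1 side holds the gene itself. It had 9.71 kb after caerulein and 8.41 kb without treatment. Of the 20 bins on the Pvt1 side, 18 had more covered length after caerulein, 1 had more in untreated spheroids and 1 was equal. On the opposite side 7 had more after caerulein, 6 had more in untreated spheroids and 7 were equal. Genome-wide, 55.4% of the bins with unequal cover had more after caerulein. Neighbouring bins can share a peak and are not independent. The 25 kb bins were chosen after the peaks had been seen.

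On the Pvt1 side the covered length was greater after caerulein in each of 3 broad zones of distance. From 10 to 100 kb beyond Myc, 50.1 kb were covered after caerulein and 37.5 kb without treatment. From 100 to 250 kb the values were 97.7 kb after caerulein and 78.1 kb without treatment, and from 250 to 500 kb they were 92.98 and 61.84 kb in the same order. Pvt1 is a long noncoding RNA gene whose locus holds enhancers of Myc (chromosome 15, 62037986 to 62260215). Peaks covered 68.0% of its body after caerulein (151.1 kb) and 53.8% without treatment (119.6 kb). At Myc itself a single peak lay over the whole gene in both lists, each with a score of 3100. It was 12002 bp wide after caerulein against 10708 bp in untreated spheroids. This ratio of 1.12 was above that of 81.4% of genes with a peak over a start in both lists.

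Peaks found in 1 list alone came mostly from post-caerulein spheroids at Myc. Around Myc, 15 of 55 post-caerulein peaks (27.3%, exact 95% interval 16.1 to 41.0) overlapped no untreated peak, against 17.5% of the whole post-caerulein list. Of the 56 untreated peaks, 4 (7.1%, 2.0 to 17.3) overlapped no post-caerulein peak, against 14.3% of the whole untreated list. The intervals cover counting error over peaks only, and peaks of 1 locus are not independent. At least 15 post-caerulein-only peaks occurred in 0.755% of the windows of the same size, and at least 4 untreated-only peaks in 43.0%. The Myc window was also among the most covered, since 0.861% of these windows had as much length under post-caerulein peaks and their median was 97.4 kb. In 47.4% of these windows post-caerulein-only peaks outnumbered the untreated-only ones. The excess of 11 at Myc was 7 when a gap of up to 1 kb counted as overlap, 4 after merging peaks within 1 kb, 3 in the smaller window of 250 kb, 2 within 100 kb and 0 with peaks held to the median score of their list. The Pvt1 side held 11 of the 15 post-caerulein-only peaks and 1 of the 4 untreated-only peaks.

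These peaks were weak and narrow. The post-caerulein-only peaks at Myc had scores of 61.5 to 413.12, all below the median of their list (526.37), and widths of 1026 to 4066 bp. Together they came to 27.3 kb of the 79.5 kb covered after caerulein alone, the rest being parts of peaks that overlapped an untreated peak. The widest and highest-scored of them lay 464.5 kb from Myc on the Pvt1 side (62454857 to 62458922, 4066 bp, score 413.12). Of the 15, 4 lay within 1 kb of an untreated peak, and the most isolated lay 25097 bp from one. The untreated-only peaks included a cluster on the other side of Myc, at 122.8, 119.2 and 70.7 kb from the gene. The strongest of these (61863653 to 61866092, 2440 bp) had a score of 678.2, just under the median of the untreated list (681.38). The gap in the post-caerulein list around this cluster ran from 184.3 kb before Myc to the peak over the gene.

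The paralogs of Myc went the other way. Mycn is an activator of progenitor and neural cells (chromosome 12, 12936093 to 12941836, minus strand). Its window held 5 post-caerulein and 5 untreated peaks, covering 12.6 kb after caerulein and 18.9 kb without treatment, a log2 difference of -0.55. Of all windows of this size, 15.1% were at least 1.2-fold lower after caerulein, and 5.58% lay below Mycn. The peak over its start, which holds the E2F-type letters shown above, measured 2382 bp after caerulein against 4060 bp in untreated spheroids. This ratio of 0.587 was smaller in 2.70% of the 9086 genes with a peak over a start in both lists, whose median ratio was 1.00. On the lower-coordinate side, 30.9 kb from the gene, untreated spheroids had a single peak of 8.36 kb with a score of 3100. In its place the post-caerulein list had a peak of 3.15 kb and a peak of 2.63 kb. The untreated list also held a peak 6.9 kb from the gene (1406 bp, score 93.06) with no post-caerulein counterpart. At least 1 untreated-only peak occurred in 56.0% of windows of this size. The nearest strong peak, 23.9 kb from Mycn, was alike, with 3.18 kb after caerulein against 3.34 kb in untreated spheroids.

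Mycl, the third activator (chromosome 4, 122995588 to 123002490, plus strand), had 8 post-caerulein and 10 untreated peaks in its window. They covered 28.3 kb after caerulein and 35.0 kb without treatment, a log2 difference of -0.30, with 13.3% of windows lower. The peak over its start measured 2256 bp after caerulein against 2919 bp in untreated spheroids, and 6.85% of genes had a smaller ratio of widths. Both list-only peaks were untreated: one of 1377 bp lay 3.6 kb from the gene, and one of 2057 bp lay nearer to Trit1. At least 2 untreated-only peaks occurred in 26.9% of windows of this size. Mycl was the nearest protein-coding gene for only 1 post-caerulein peak and 2 untreated peaks. Restricted to these, the log2 difference was -0.70. The remaining peaks lay nearer to Mfsd2a, Trit1 or Bmp8b.

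Max, the partner that activators and antagonists share, had more covered length after caerulein (chromosome 12, 76937269 to 76962323, minus strand). Its window held 60.0 kb in 18 post-caerulein peaks and 51.4 kb in 17 untreated peaks, a log2 difference of 0.22, at percentile 79.1 of all windows, 17.6% of which were at least 1.2-fold higher. The peak over its start, with the E-box shown above, measured 3573 bp after caerulein against 3001 bp in untreated spheroids. Of genes with a peak over a start in both lists, 87.4% had a smaller ratio of widths. Inside the gene, a post-caerulein-only peak of 3092 bp (score 241.13) lay between peaks common to both lists, 339 bp from an untreated peak. The other post-caerulein-only peaks measured 1244 and 1248 bp and lay 631 and 4308 bp from an untreated peak. A single untreated-only peak of 1656 bp lay 57.0 kb beyond the start side of the gene. The excess of 2 post-caerulein-only peaks was 0 when a gap of up to 1 kb counted as overlap, and 0 after merging peaks within 1 kb. Of windows of this size, 13.9% held at least 3 post-caerulein-only peaks and 56.0% at least 1 untreated-only peak. Of the post-caerulein peaks in this window, 8 of 18 had Max as the nearest gene, and the rest lay nearest to Fntb.

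**Figure D2:**
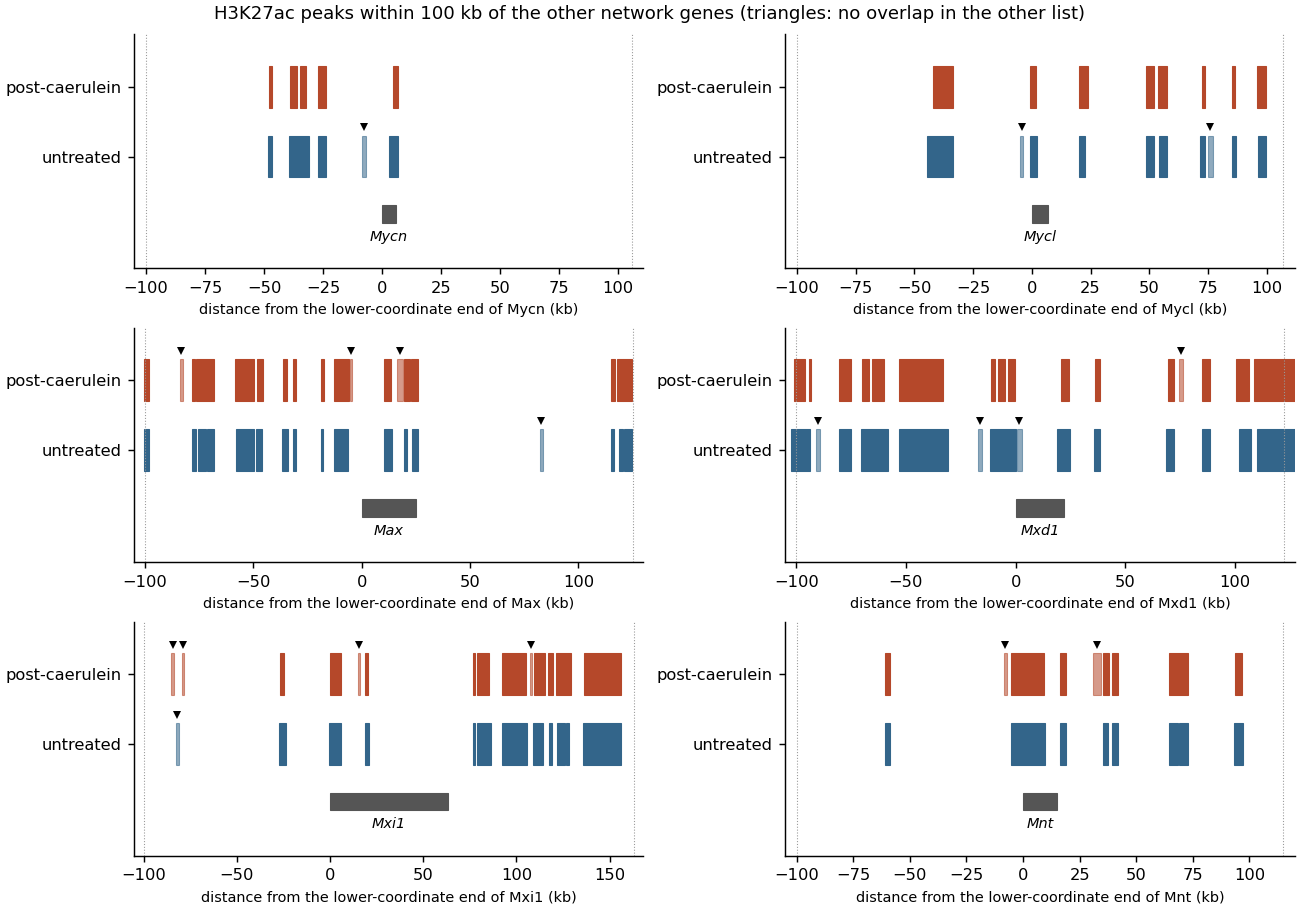
H3K27ac peaks within 100 kb of Mycn, Mycl, Max, Mxd1, Mxi1 and Mnt (boxes; post-caerulein above untreated), against the distance from each gene's lower-coordinate end in kb; dotted lines bound the windows and grey bars are the genes. At Mycn the 8.36 kb untreated peak faces 2 shorter post-caerulein peaks, and at Mxd1 the untreated peaks beside and over the gene are wider.

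Among the antagonists, Mxd1 had less length under H3K27ac peaks after caerulein. Mxd1 marks cells that leave the cycle and differentiate (chromosome 6, 86647044 to 86669234, minus strand). Its window held 81.3 kb in 17 post-caerulein peaks and 98.5 kb in 15 untreated peaks, a log2 difference of -0.27, with 14.4% of windows lower. The difference was larger at the gene than in the window: over the peaks nearest to Mxd1 it was -0.62 in log2. The peak over its start measured 3772 bp after caerulein against 6251 bp in untreated spheroids, and 2.98% of genes had a smaller ratio. At the opposite end of the gene the post-caerulein list had peaks of 3240 and 3345 bp, against a single untreated peak of 7997 bp. There were 3 untreated-only peaks, of 1631 to 2184 bp, one of them inside Mxd1, and 1 post-caerulein-only peak of 2116 bp near Gmcl1. Of windows of this size, 12.2% held at least 3 untreated-only peaks and 58.0% at least 1 post-caerulein-only peak.

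Mxi1 was nearly even (chromosome 19, 53310128 to 53373293, plus strand). Peaks covered 71.3 kb after caerulein and 68.0 kb without treatment, a log2 difference of 0.07 that turned to -0.04 with peaks held to the median score of their list. The table gives it 3 starts, of which the first lay under a peak of 6029 bp after caerulein against 6194 bp in untreated spheroids. The 2 inner starts shared a narrow peak of 1636 bp after caerulein against 1911 bp in untreated spheroids. The gene thus carried marked promoters at both of its start regions in both groups. Its 4 post-caerulein-only peaks were narrow (897 to 1433 bp) and weak (scores 50.12 to 182.62), and 1 untreated-only peak of 1324 bp lay 18.4 kb from Add3. As many post-caerulein-only peaks occurred in 6.68% of windows of this size, and at least 1 untreated-only peak in 56.0%. Most of the covered length belonged to peaks nearest to Smndc1, the widest 19.8 kb after caerulein against 20.4 kb in untreated spheroids.

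Mnt, the antagonist expressed in dividing and resting cells alike (chromosome 11, 74830806 to 74845725, plus strand), had the widest start peak of the 7 genes. It measured 14770 bp after caerulein against 15043 bp in untreated spheroids, reached the neighbouring gene Mettl16 and held the E-box shown above. The window had 41.1 kb after caerulein and 36.8 kb without treatment, a log2 difference of 0.15 that turned to -0.14 with peaks held to the median score. It held 2 post-caerulein-only peaks, of 1531 and 3554 bp, nearest to Mettl16 and Sgsm2, and no untreated-only peak. As many post-caerulein-only peaks occurred in 28.7% of windows of this size. Mnt was the assigned nearest gene of 0 post-caerulein and 0 untreated peaks, the start peak being counted to Mettl16, whose end it also covers.

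**Figure D3:**
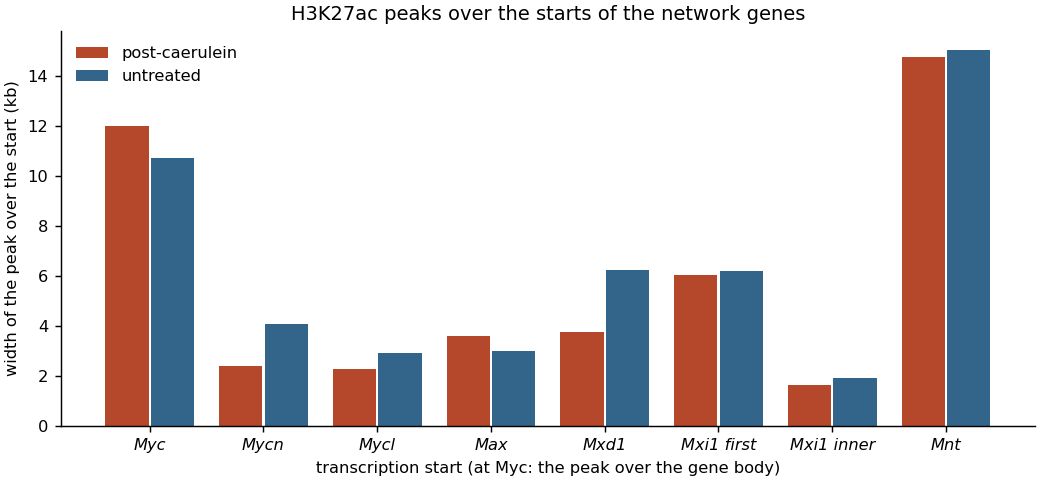
Width in kb of the H3K27ac peak over each transcription start (over the gene body at Myc) in post-caerulein (left bars) and untreated spheroids (right bars). Mycn and Mxd1 have the largest shortfall after caerulein (2382 against 4060 bp and 3772 against 6251 bp), and the peaks at Mnt and the first start of Mxi1 are nearly equal.

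Set side by side, 4 genes (Myc, Max, Mxi1 and Mnt) had more covered length after caerulein and 3 (Mycn, Mycl and Mxd1) had less. The same 4 and 3 genes had more list-only peaks on that side, though at Max this excess was 0 when a gap of up to 1 kb counted as overlap. Of the genes with more, Mxi1 and Mnt turned with the score limit, as given above. Among all windows of 100 kb, post-caerulein-only peaks were in excess in 37.5% and untreated-only peaks in 33.5%. The limit of 1.2-fold was passed upward by Myc and downward by Mycn, Mycl and Mxd1, where 17.6% of all windows of 100 kb passed it upward and 15.1% downward. Mycl fell short of it with peaks held to the median score (log2 -0.07) and within 50 kb (-0.19). Max passed it upward under those settings (0.43 and 0.35) and over the peaks nearest to it (0.42). The median log2 difference of the 7 genes was 0.07, beside a median of 0.02 over 16323 genes in windows of 100 kb. All windows together held 25 post-caerulein-only peaks (19.8% of 126, exact 95% interval 13.3 to 27.9) and 12 untreated-only peaks (9.8% of 123, 5.1 to 16.4). The shares of the whole lists, 17.5% and 14.3%, lie inside these intervals. Without Myc the counts were 10 of 71 (14.1%) and 8 of 67 (11.9%). The summed covered length without Myc was 294.6 kb after caerulein against 308.6 kb in untreated spheroids. None of the list-only peaks of the 7 windows reached the median score of its own list.

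**Figure D4:**
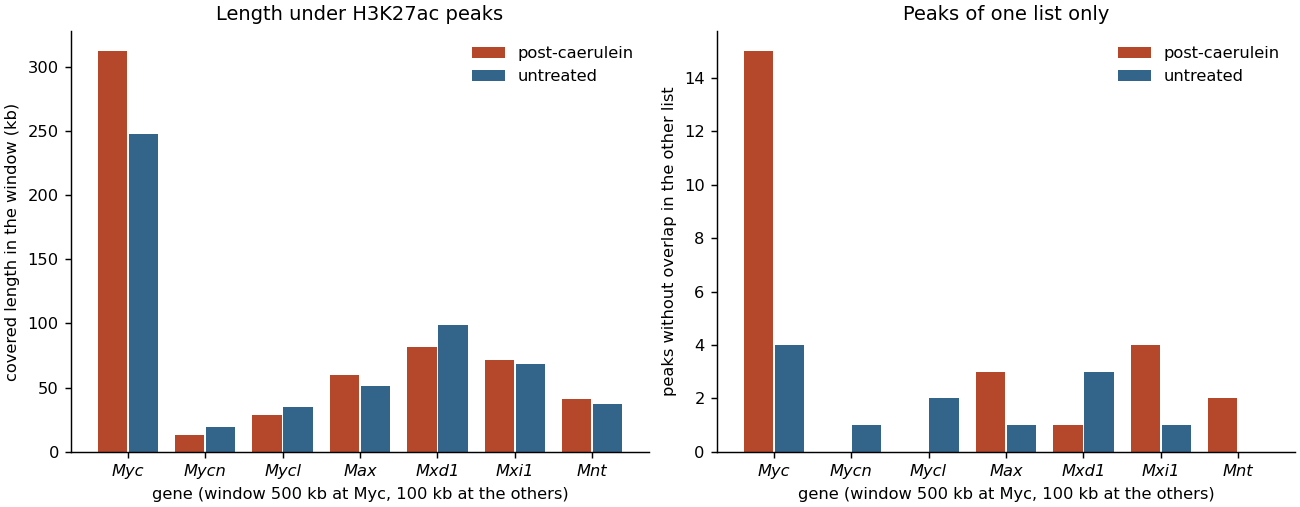
Length covered by H3K27ac peaks (left, kb) and number of peaks without overlap in the other list (right) for each gene, in post-caerulein (left bars) and untreated spheroids (right bars). Myc has 312.0 against 247.3 kb and 15 against 4 peaks, while Mycn, Mycl and Mxd1 are lower after caerulein on both measures.

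**Figure D5:**
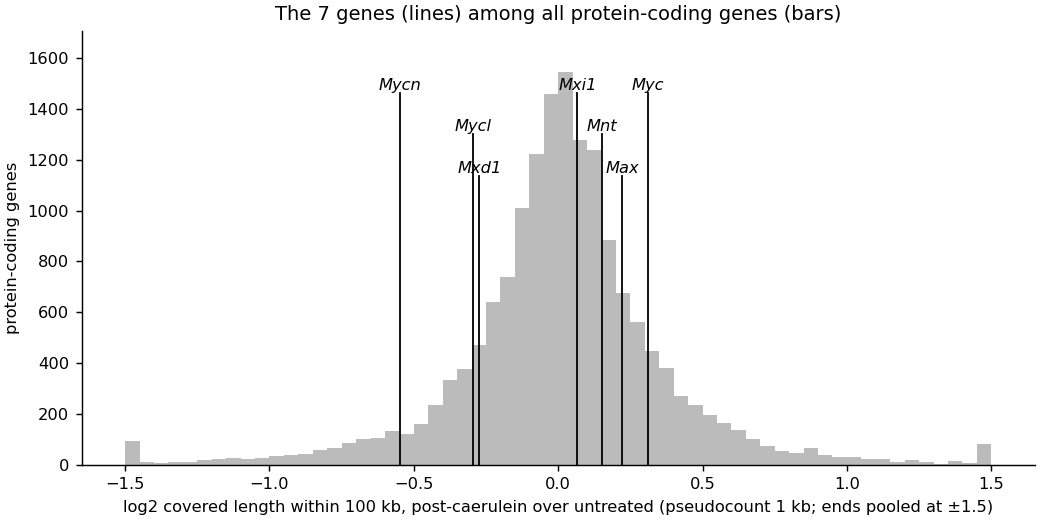
Log2 covered length within 100 kb, post-caerulein over untreated (x axis), for 16323 protein-coding genes (bars, number of genes) and the 7 network genes (lines; Myc here also with 100 kb, at 0.31). Mycn at -0.55 lies nearest to an edge of the distribution, and all 7 genes lie between -0.58 and 0.58, beyond which lie 5% of genes on either side.

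With the same 100 kb window as the others, Myc had 62.1 kb in 11 post-caerulein peaks and 49.8 kb in 10 untreated peaks, a log2 difference of 0.31. The genes most alike to it in these 4 values over the 2 libraries were Iqck, Ccnd1 and Lmnb2. Distance was Euclidean, in log2 covered length and number of peaks. Iqck was closest, at 0.032, with 61.02 kb after caerulein and 49.13 kb without treatment. Ccnd1, the cyclin D1 gene, followed at 0.086 with 59.4 kb after caerulein and 51.9 kb without treatment, and Lmnb2, a nuclear lamin gene, at 0.095 with 63.8 kb after caerulein and 53.0 kb without treatment.

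The wider network was marked almost without exception in both groups. Of 67 genes in 5 lists, 66 had a marked start or end in both lists (98.5%, against 52.7% of 21887 protein-coding genes). Only Lef1, a Wnt effector, was marked in neither. The share of 52.7% is also the background for the marked genes of each list below. Within 50 kb, 62 genes had at least 5 kb covered in either list, of which 5 were at least 1.2-fold higher after caerulein (8.06%, against 18.4% of 14123 genes), 12 at least 1.2-fold lower (19.4%, against 16.1%) and 45 between these limits. Their median log2 difference was -0.07, beside 0.01 for all genes. With peaks held to the median score, 9 of 58 were higher, 12 lower and the median was -0.02, beside 0.01 for all genes. The shares of all genes past 1.2-fold were not counted under this setting or with equal numbers of peaks. The counts given for these settings, here and for the lists below, thus have no background.

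The other dimer partners were 6 of 6 marked, with 1 higher and 2 lower after caerulein (16.7% and 33.3%, against 18.4% and 16.1% of all genes). Mxd3, an Mxd family antagonist of proliferating cells, had 10.5 kb after caerulein and 17.8 kb without treatment, a log2 difference of -0.71. Mlxip, a glucose-sensing factor that pairs with Mlx, had 16.7 kb after caerulein and 23.3 kb without treatment. Mxd4 had 12.5 kb after caerulein and 9.33 kb without treatment, and Mga, whose sign turned with the score limit, 6.31 and 7.19 kb in the same order. Mxd-family genes thus lay in both directions.

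Of the cofactors, 16 of 16 were marked, with 1 higher and 1 lower of 14 (7.14% each, against 18.4% and 16.1% of all genes). The higher gene was Wdr5, a subunit of histone methyltransferase complexes that binds Myc, with 20.7 kb after caerulein and 15.7 kb without treatment. The lower gene was Trrap, the scaffold of acetyltransferase complexes, with 13.3 kb after caerulein and 16.5 kb without treatment. The acetyltransferase gene Kat5, with 27.5 kb after caerulein and 32.6 kb without treatment, stayed under the limit. With peaks held to the median score 3 cofactors were higher and 2 lower of 14. Genes of Myc protein turnover were all marked (12 of 12), and 1 of 12 was higher (8.33%) and 0 lower, against the same 18.4% and 16.1%. This split was 1 higher and 2 lower with equal numbers of peaks, and 0 higher and 1 lower of 11 with peaks held to the median score. Skp2, a ubiquitin ligase subunit, was the higher one, with 7.63 kb after caerulein and 6.05 kb without treatment. Fbxw7, the subunit that recognises phosphorylated Myc, had 18.8 kb after caerulein and 21.8 kb without treatment. The ligase gene Stub1 had 35.3 and 30.2 kb and Trpc4ap, whose sign turned with the score limit, 19.0 and 22.2 kb in the same order.

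Target genes were marked in both groups in 25 of 25 cases. Of 22 with enough cover, 0 were higher after caerulein, against 18.4% of all genes, and 6 were lower (27.3%, against 16.1%). With peaks held to the median score 4 were higher and 5 lower of 21. Dkc1, a pseudouridine synthase on the X chromosome, had 5.00 kb after caerulein and 9.73 kb without treatment. Hspd1, a mitochondrial chaperonin, had 18.8 kb after caerulein and 33.0 kb without treatment. Tert, the telomerase reverse transcriptase, had 12.7 and 21.5 kb, and Ldha, lactate dehydrogenase A, 13.9 and 19.5 kb in the same order. Of the upstream regulators, 7 of 8 were marked, with 3 lower and 2 higher after caerulein (37.5% and 25%, against 16.1% and 18.4% of all genes). Tcf7l2, a Wnt effector, had 51.0 kb after caerulein and 68.2 kb without treatment, Hnrnpk 7.25 and 10.6 kb, and Lef1, whose sign turned with the score limit, 2.51 and 5.55 kb. Ctcf, the insulator protein gene, had 23.3 kb after caerulein and 18.9 kb without treatment.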

How the data were processed

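H3K27ac chromatin immunoprecipitation and sequencing gave 1 library per group, and each has 1 deposited peak list with positions and a score. Per the submitters' processing notes, the tools were MACS 1.4, SAMtools, Bowtie2 2.2.6 and Trimmomatic 0.38, listed without their roles, and the build was mm10, also called GRCm38. The control and options given to the peak caller are not given in the sources used here. No header defines the deposited score, which runs from 50.0 to 3233.06 and piles up at 3100, so it was used only within a list.

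Positions were made 1-based. A peak was called list-only when no peak of the other list overlapped it by 1 bp. Covered length was compared as log2 with a pseudocount of 1 kb, which understates changes of short lengths, and against 21887 protein-coding genes of RefSeq GRCm38.p6. Windows with under 5 kb covered in both lists were left out of that background. Starts came from the RefSeq promoter table, which held 6 of the 7 genes, and otherwise either gene end was used. Distances at Myc are from the gene body, except that the 25 kb bins run from its lower-coordinate end. Intervals are exact (Clopper-Pearson) at 95%. The overlap code was tested on simulated data (Python 3.11.15, numpy 2.4.6, pandas 2.3.3).

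The 7 genes, the lists and the tests were chosen with earlier results of these data known. Named genes of the wider lists were those marked in 1 list alone (there were none) and the 4 per list with the largest log2 difference; a further gene of this rule is not reported here. Alternatives tried were a score limit, other overlap rules, merging, equal numbers of peaks, other windows, assignment to the nearest gene and another pseudocount.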

Additional observations from a re-analysis of the deposited data

How the results depend on the processing

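Covered length kept its direction at Myc (0.30 to 0.50), Mycn (-0.75 to -0.45), Mycl (-0.70 to -0.07), Max (0.22 to 0.43) and Mxd1 (-0.62 to -0.27) under all alternatives run on it. Mxi1 reversed with peaks at or above the median score (-0.0404), a window of 50 kb (-0.0093) and peaks nearest to the gene (-0.0298), and Mnt with the score limit (-0.1406). The total over the 7 genes (0.13) reversed without Myc (-0.0664) and with 100 kb at Myc too (-0.0068), both chosen after seeing the data. List-only peaks, 25 post-caerulein and 12 untreated, numbered 0 and 0 with the score limit and 12 and 7 with the smaller windows. Post-caerulein-only peaks were 15 after merging peaks within 1 kb, 13 with 100 kb at Myc and 10 without Myc. The excess of post-caerulein-only peaks at Myc (11) was 7 when a gap of up to 1 kb still counted as overlap and 4 after merging. At Max the excess (2) was 0 under both settings. The gap rule changed only what counts as overlap, and under the other settings fewer peaks or genes entered; other causes were not tested. All 7 genes stayed marked except with the score limit, which left 6, Mycn being lost. Of the 67 wider network genes 57 to 66 stayed marked in both lists. No paired analysis was possible because there is 1 H3K27ac library per group, which also means that none can be left out. The depth, which is unknown, limits all counts of list-only peaks, and the peak widths and covered lengths as well.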

Other observations

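Some peaks of the windows lay over or near neighbouring genes. In the Mxd1 window, a post-caerulein peak of 38.2 kb lay over part of Anxa4, an annexin gene of secretory epithelium. It overlapped 2 untreated peaks, of which the one reaching into the window measured 26.9 kb. That peak and the post-caerulein peak both began 87.9 kb from Mxd1 and ran past the edge of the window. Their difference in width thus lay outside the window. Beyond Mycl, the widest peak over Mfsd2a, a lysophospholipid transporter gene, measured 8.53 kb after caerulein against 11.2 kb in untreated spheroids. Between Mxi1 and the edge of its window, the peaks nearest to Smndc1 included one of 13.0 kb in each list.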
